A study of Mus musculus with 21 samples.

Results

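Aminoacyl-tRNA synthetases were read in RNA-seq counts of SMB21 cells. This mouse line comes from medulloblastoma, a tumour of the cerebellum, of the sonic hedgehog (SHH) kind. The genes are 35 rows of the count table, chosen by symbol from 24047 rows: 20 synthetases of the cytosol, some of them shared with mitochondria, and 15 of the mitochondrion, whose symbols end in 2. The rule uses symbols and no measured value. All 35 were in the table and passed the low-count filter of both fits, and the smallest count of any of them in any library was 114.

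Synthetases attach each amino acid to its own tRNA, the step on which accurate translation rests. Cytosolic and mitochondrial protein synthesis use largely separate sets of these enzymes, both encoded in the nucleus, while Gars and Kars serve both compartments from single genes. Many cytosolic synthetase genes are known targets of ATF4, the transcription factor of the amino acid response, which also drives Asns, the gene of asparagine synthetase. Lars2, the mitochondrial leucyl-tRNA synthetase, was singled out when the genes were chosen because its row was said to follow ribosomal RNA (rRNA) carry-over, read here from Rn45s, the row of the rRNA precursor.

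The series has 21 libraries in 7 groups of 3, all from this 1 line grown in DMEM/F12 medium with B-27. Cells were exposed to the histone deacetylase inhibitor quisinostat (JNJ) for 2 h or 24 h, and solvent (DMSO) groups were collected at both times. The labels give no dose. In a separate arm, cells were infected with a virus carrying a short hairpin RNA against luciferase (shLuc, the control), Hdac1 (shHdac1) or Hdac2 (shHdac2), and all 3 of these groups were selected with puromycin. It is not labelled whether the 3 libraries of a group were grown apart, so p-values here reflect spread between libraries that may be only technical.

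Libraries held 23094799 to 39341784 counts (median 31426312). The synthetases took 0.458 to 0.810% of a library, Lars2 alone 0.00993 to 0.109% and Rn45s 0.0429 to 0.181%. All 10 markers of SHH medulloblastoma and granule cell progenitors reached a mean of 1 CPM (the usual counts-per-library-size unit), with a sum of 1959 to 3433 CPM per library. CPM of markers use plain library totals, while CPM elsewhere use TMM-scaled library sizes. Markers of microglia and leukocytes (0 of 5 at 1 CPM) and of erythroid cells (0 of 3) did not, while 3 of 5 astrocyte, 2 of 4 oligodendrocyte, 1 of 4 endothelial and 3 of 5 fibroblast markers did. Exons of 8 members overlap those of another counted gene in GENCODE M21, for example Aars with Exosc6 on the same strand and Mars with Ddit3 on the opposite strand. The 8 are Aars, Ears2, Fars2, Farsb, Hars, Iars2, Mars and Yars, and Aars, Ears2 and Hars are among the changed genes described below. Aars, Mars and Yars are also among the genes described below as swinging with Asns, and Ddit3 is in the ATF4 list. The values of Aars are uncertain whichever strand was counted. Which strand was counted is not stated, and the values of the others are uncertain for that reason.

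Promoter sequence is shown for cytosolic members because several of them rose and fell together from library to library, as described below for Asns. The letters searched were TGATGNAA, the core of the element that ATF4 and its C/EBP partners are known to bind, or TTNCATCA, the same letters on the other strand. No other motif was searched. In RefSeq promoters (GRCm38.p6, 250 bases before the start to 50 after), 27 members had an entry. The motif was in 5 of 13 cytosolic members (38.5%) and 0 of 14 mitochondrial members. It was in 4.51% of all 27025 genes with a RefSeq promoter entry, whether or not they were counted or tested here. Its first base lay at -112 and again at 10 in Aars, at -30 in Gars, at -15 in Tars, at 8 in Iars and at 4 in Yars, counted from the start as base 1. Capitals mark the motif in the 150 bases before the start of Aars (chr8:111033692-111033841, plus strand), Gars (chr6:55037851-55038000, plus strand) and Tars (chr15:11399659-11399808, minus strand).
Aars: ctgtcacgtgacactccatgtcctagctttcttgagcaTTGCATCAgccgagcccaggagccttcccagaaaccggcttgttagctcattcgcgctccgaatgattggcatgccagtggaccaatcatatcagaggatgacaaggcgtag
Gars: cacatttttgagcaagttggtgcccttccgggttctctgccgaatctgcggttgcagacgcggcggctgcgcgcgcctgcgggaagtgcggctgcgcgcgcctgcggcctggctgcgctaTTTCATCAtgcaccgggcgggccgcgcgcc
Tars: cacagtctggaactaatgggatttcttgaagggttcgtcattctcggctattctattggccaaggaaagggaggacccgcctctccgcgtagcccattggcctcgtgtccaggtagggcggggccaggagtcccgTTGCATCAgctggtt
In Iars (chr13:49682126-49682155, plus strand) and Yars (chr4:129189895-129189924, plus strand), 30 bases around the start are shown.
Iars: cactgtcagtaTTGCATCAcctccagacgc
Yars: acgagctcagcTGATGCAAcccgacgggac
A match describes the letters in this window and is no measured binding site.

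After 2 h with JNJ, 1 synthetase gene rose and 3 fell, all 4 of them mitochondrial, while 31 did not pass the test. Called here means an adjusted p under 0.05 by edgeR's quasi-likelihood test with Benjamini-Hochberg adjustment over all genes. The 4 are 11.4% of the members, against 13.7% of all 14467 genes tested, so the share was near the background. Higher calls were 1 of 35 against 9.11% of all genes, and lower calls 3 of 35 against 4.59%. The median log2 change was -0.11 over the members and 0.03 over all genes. None of the 20 cytosolic genes was called by edgeR. Unadjusted p was under 0.05 for 2 of them and for 4199 of the 14467 genes tested.

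Mars2, the mitochondrial methionyl-tRNA synthetase, rose from 18.0, 20.8 and 31.3 CPM in DMSO replicates 1 to 3 to 69.2, 51.1 and 57.0 CPM in JNJ. Every treated library lay above every control library. The log2 change was 1.34 (SE 0.23, n = 3 per group, adjusted p = 0.00237), and the gene stayed called without any 1 of the 6 libraries, at log2 1.15 to 1.58. At 24 h the same gene had 24.0, 17.5 and 22.3 CPM in DMSO and 29.3, 25.0 and 29.6 CPM in JNJ. These groups did not overlap either, with a log2 change of 0.40 that was not called.

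Sars2, which charges mitochondrial serine tRNAs, fell at 2 h from 15.2, 16.1 and 12.8 to 7.70, 8.34 and 10.5 CPM, with no overlap (log2 -0.73, SE 0.21, adjusted p = 0.0379). Wars2, the mitochondrial tryptophanyl enzyme, fell from 12.8, 9.16 and 10.1 to 3.19, 5.96 and 7.39 CPM, also with no overlap (log2 -0.96, SE 0.29, adjusted p = 0.0469). Ears2, the mitochondrial glutamyl enzyme, fell from 19.7, 22.0 and 12.3 to 9.02, 12.9 and 6.06 CPM (log2 -0.95, SE 0.29, adjusted p = 0.0474). Here JNJ replicate 2 lay above DMSO replicate 3, so the groups overlapped. In bulk RNA, less RNA of a gene per cell and fewer cells that express it cannot be told apart.

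These 3 falls were near the threshold. Without DMSO replicates 1 or 2 or JNJ replicate 1, none of the 3 was called, at adjusted p of 0.0702 to 0.148, and Mars2 was then the 1 member called. Without JNJ replicate 2, Sars2 (0.0984) and Wars2 (0.0819) were lost. Without DMSO replicate 3, Wars2 (0.0688) was lost and Dars was called, and without JNJ replicate 3, Ears2 (0.0861) was lost and Qars was called. With the replicate number as a block in the 12-library fit, 7 members were called (Mars2 higher and Aars2, Dars, Ears2, Pars2, Sars2 and Wars2 lower), where 23.9% of all genes were called and 9.35% were lower. With the block in the 2 h libraries alone, the members called were Mars2 and Ears2, where 10.8% of all genes were.

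Members not called at 2 h ran from log2 -0.64 to 0.36. The largest changes among them were in Pars2, the mitochondrial prolyl enzyme (log2 -0.64, adjusted p = 0.0802), and Aars2, the mitochondrial alanyl enzyme (log2 -0.49, adjusted p = 0.104). Lars2 had 572, 1144 and 917 CPM in DMSO and 963, 1116 and 1132 CPM in JNJ. The groups overlapped, and DMSO replicate 1 was the low library (log2 0.29, SE 0.34, adjusted p = 0.620). Rn45s had 945, 1681 and 1634 against 1845, 1577 and 1376 CPM, with the same DMSO library low (log2 0.17, adjusted p = 0.682).

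**Figure D1:**
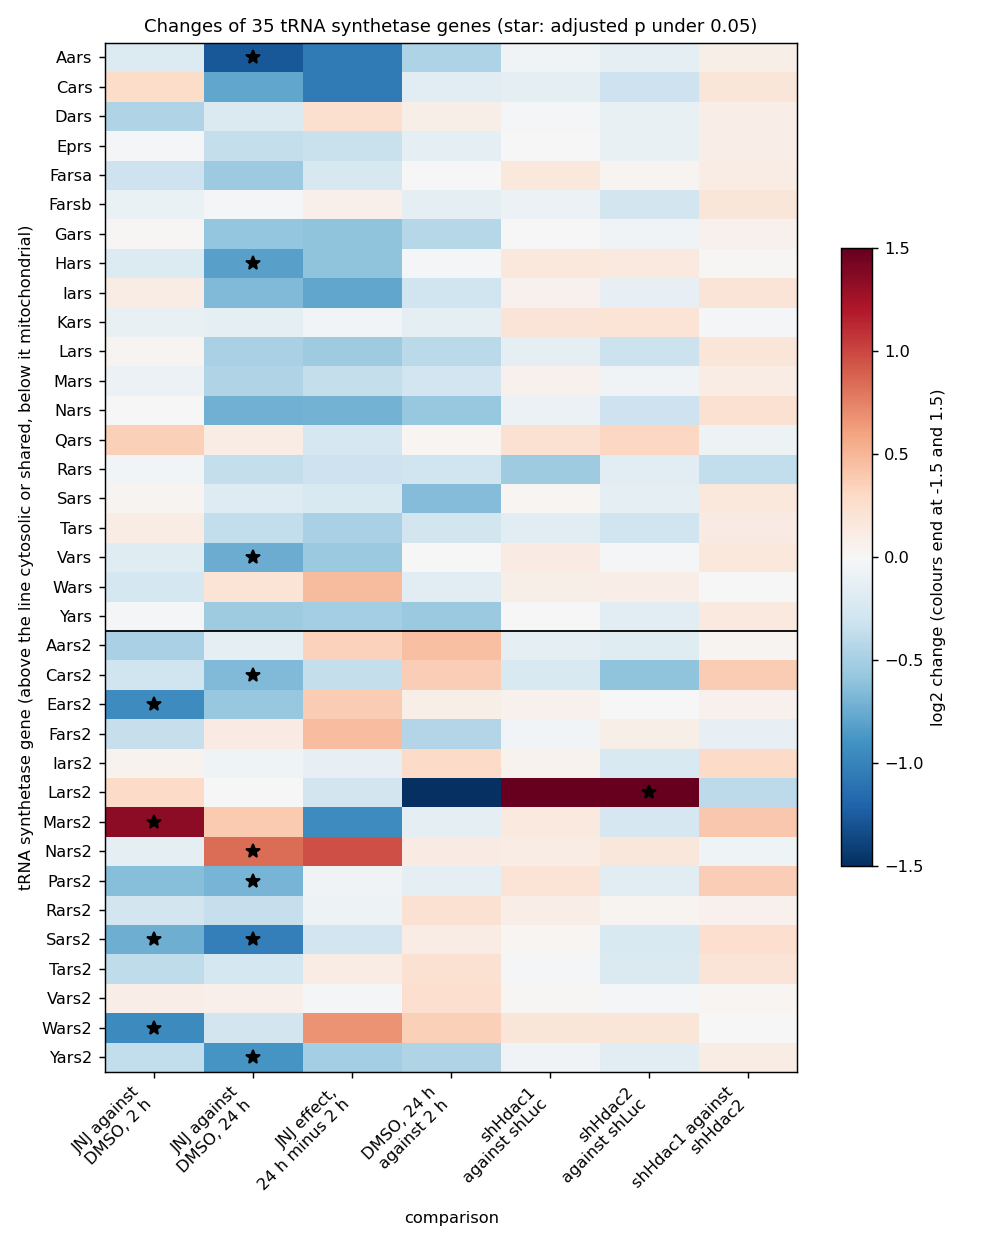
Log2 change of each of the 35 synthetase genes (rows, cytosolic or shared above the line) in the 7 comparisons (columns); a star marks an adjusted p under 0.05. Stars at 2 h are on 4 mitochondrial genes, stars at 24 h on 3 cytosolic and 5 mitochondrial genes, and Lars2 has the strongest colours in DMSO 24 h against DMSO 2 h and in both knockdowns against shLuc.

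At 24 h with JNJ, 1 synthetase rose and 7 fell, with members of both compartments among them. The falls were in 3 of 20 cytosolic genes (Aars, Hars and Vars) and in 4 of 15 mitochondrial genes (Cars2, Pars2, Sars2 and Yars2), and the rise was in Nars2. The share called was 22.9% of members against 33.1% of all genes. Lower calls were 7 of 35 members, where 15.1% of all genes were lower and 18.1% higher. The median log2 change was -0.35 over the members (-0.47 cytosolic, -0.27 mitochondrial) and 0.01 over all genes, and 28 of the 35 had a negative value.

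Among the cytosolic enzymes, Aars, which charges alanine tRNA, fell from 436, 287 and 414 CPM in DMSO to 126, 164 and 182 CPM in JNJ (log2 -1.27, SE 0.32, adjusted p = 0.00889). Hars, the histidyl enzyme, fell from 117, 119 and 138 to 70.8, 68.9 and 73.6 CPM (log2 -0.81, SE 0.15, adjusted p = 0.00134). Vars, the valyl enzyme, fell from 297, 281 and 336 to 168, 197 and 182 CPM (log2 -0.74, SE 0.16, adjusted p = 0.00324). In all 3 every treated library lay below every control library, and each stayed called without any 1 of the 6 libraries.

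Of the mitochondrial enzymes, Sars2 fell again, from 13.4, 17.1 and 17.3 to 7.15, 8.04 and 8.35 CPM (log2 -1.02, SE 0.21, adjusted p = 0.00326), and stayed called without any 1 library. Yars2, the tyrosyl enzyme, fell from 44.8, 62.6 and 45.3 to 29.5, 32.4 and 20.6 CPM (log2 -0.89, SE 0.26, adjusted p = 0.0201). The groups of both genes were apart. Pars2 fell from 21.8, 18.4 and 18.3 to 11.9, 13.0 and 11.3 CPM (log2 -0.69, SE 0.23, adjusted p = 0.0318). Cars2, the cysteinyl enzyme, fell from 18.8, 19.5 and 21.9 to 14.1, 12.2 and 11.7 CPM (log2 -0.66, SE 0.18, adjusted p = 0.0151). These groups were apart as well, but the calls were less firm. Pars2 was lost without any 1 of the 6 libraries (adjusted p = 0.0510 to 0.102). Cars2 was lost without DMSO replicate 3 (0.0594), JNJ replicate 2 (0.0569) or JNJ replicate 3 (0.0597), and Yars2 without DMSO replicate 2 (0.0733) or JNJ replicate 3 (0.0873). Without JNJ replicate 3, 5 members were called. Cars2, Pars2 and Yars2 were also lost when libraries were scaled by their totals, which moved the median of all genes to log2 0.17.

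Nars2, the mitochondrial asparaginyl enzyme, went the other way, from 16.5, 16.0 and 14.1 to 26.4, 26.6 and 30.0 CPM. Each treated library was above each control library (log2 0.83, SE 0.18, adjusted p = 0.00379), and the call held without any 1 of them. Its cytosolic counterpart Nars had 466, 277 and 340.4 CPM in DMSO and 206, 215 and 237 CPM in JNJ. These groups were apart in the other direction, with a log2 change of -0.72 that was not called. The largest change not called was in Cars, the cytosolic cysteinyl enzyme (142, 73.1 and 89.1 against 54.6, 67.7 and 54.5 CPM, log2 -0.78, adjusted p = 0.0736). Members not called ran from -0.78 to 0.40.

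**Figure D2:**
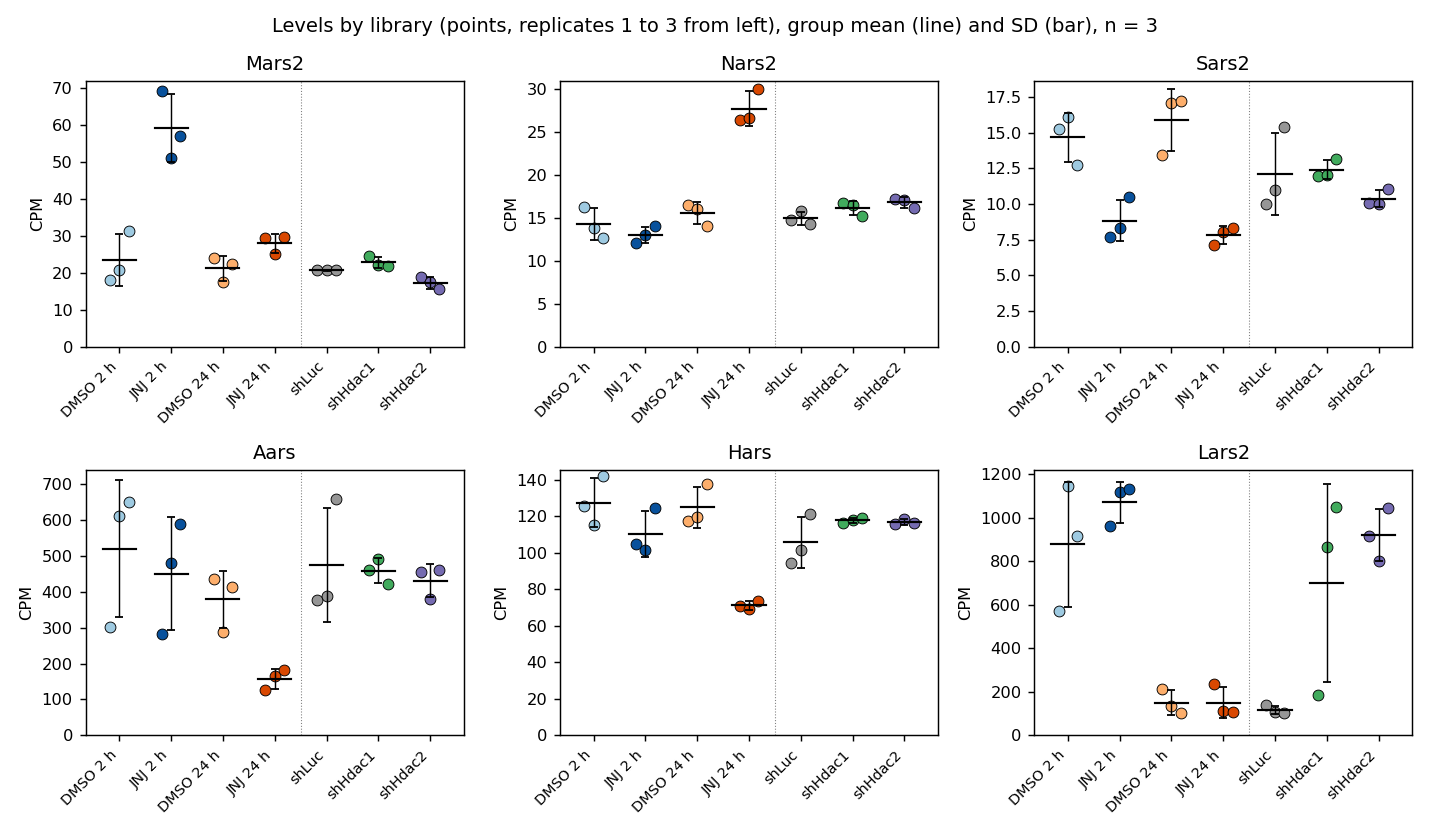
CPM of 6 synthetase genes in each library (points, replicates 1 to 3 from left to right), with the group mean (line) and SD (bar, n = 3). Mars2 is high in JNJ 2 h, Nars2 is high in JNJ 24 h, Aars and Hars are low in JNJ 24 h, Sars2 is low in both JNJ groups, and Lars2 is high at 2 h and in 5 of 6 hairpin libraries against Hdac1 or Hdac2.

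At 24 h the libraries pair by replicate number: deviations from the group means correlated at 0.61 to 0.65 for the same number and reached at most -0.19 otherwise. With the number as a block in the 12-library fit, 14 members were called, 1 higher and 13 lower, where 45.8% of all genes were called and 21.6% were lower. With the block in the 24 h libraries alone, 23 members were called, where 63.5% of all genes were called and 31.1% were lower. Of these, 2 were higher (Nars2 and Mars2) and 21 lower, 14 of them cytosolic and 7 mitochondrial. In that fit Nars had a log2 change of -0.69 (adjusted p = 0.00595), Gars -0.56 (0.00413), Farsa -0.55 (0.000917) and Cars -0.74 (0.0186). JNJ was below DMSO in all 3 same-number pairs for 15 of 20 cytosolic and 9 of 15 mitochondrial members, against 39.2% of all genes.

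At 24 h Lars2 was among the members with little change, as were Farsb (log2 -0.03) and Iars2 (-0.06). It had 212, 134 and 103 CPM in DMSO and 235, 109.6 and 107 CPM in JNJ (log2 0.01, SE 0.35, adjusted p = 0.986). Replicate 1 was the high library in both groups. Rn45s had 676, 624 and 543 against 643, 594 and 397 CPM (log2 -0.17, adjusted p = 0.623).

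The JNJ effect at 24 h minus that at 2 h was called for 0 of 35 members by edgeR's quasi-likelihood test, where 4.24% of all genes were called. Unadjusted p was under 0.05 for 6 members and for 3176 of 14467 genes. DESeq2 called 1 member (Nars2), with 10.4% of all genes. Nars2 had the lowest adjusted p, 0.0506, with a difference of 0.96 (SE 0.25), and Mars2 had a difference of -0.94 (SE 0.31, adjusted p = 0.102). The largest differences were those of Cars (-1.06, SE 0.44, adjusted p = 0.186) and Aars (-1.06, SE 0.45, adjusted p = 0.187). With the replicate block, Nars2, Mars2 and Hars were called, where 14.7% of all genes were. That block takes a number as shared by both times. Same-number deviations of JNJ 2 h correlated at 0.509, 0.649 and 0.572 with DMSO 24 h and at 0.480, 0.613 and 0.412 with JNJ 24 h. Those of DMSO 2 h correlated at -0.176, 0.481 and 0.577 with DMSO 24 h, so DMSO 2 h replicate 1 did not show this sharing. Nars2 was also called without DMSO 2 h replicate 3 (1.07) and without JNJ 2 h replicate 3 (1.02), and Mars2 without DMSO 2 h replicate 3 (-1.19). Of all genes, 3.72% were called without DMSO 2 h replicate 3 and 7.81% without JNJ 2 h replicate 3.

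Genes that work beside the synthetases were read from lists of the same pathways. Of 30 genes of the ATF4 amino acid response, 1 was higher and 10 were lower at 24 h, with a median log2 change of -0.88, where 18.1% of all genes were higher and 15.1% lower and their median was 0.01. Atf4 itself fell from 384, 281 and 277 to 99.5, 154 and 95.5 CPM (log2 -1.43, SE 0.25, adjusted p = 0.001). Mthfd2, a mitochondrial folate enzyme, fell from 345, 141 and 239 to 71.7, 79.7 and 77.9 CPM (log2 -1.66, SE 0.36, adjusted p = 0.00401), and Cebpb, a C/EBP transcription factor, rose (log2 1.33, SE 0.31, adjusted p = 0.00585). In both Atf4 and Mthfd2 the groups were apart. At 2 h the same list had 3 higher and 0 lower, where 9.11% of all genes were higher and 4.59% lower, among them the amino acid transporter gene Slc7a5 (log2 0.87, SE 0.25, adjusted p = 0.0341) and the stress sensor gene Sesn2 (log2 1.42, SE 0.41, adjusted p = 0.0385), and Atf4 was not called (log2 -0.76, adjusted p = 0.0547).

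Of 19 charging partners, genes whose products bind, edit or complete charged tRNAs, 3 were higher and 5 lower at 24 h, where 18.1% of all genes were higher and 15.1% lower. Dtd2, a deacylase of mischarged tRNA, rose (log2 0.84, SE 0.22, adjusted p = 0.0105). Qrsl1, a subunit of the enzyme that makes mitochondrial glutaminyl-tRNA, fell from 18.9, 17.3 and 16.1 to 8.50, 8.26 and 5.83 CPM (log2 -1.21, SE 0.23, adjusted p = 0.00185), and Aarsd1, an alanyl-tRNA editing protein, fell too (log2 -0.57, SE 0.14, adjusted p = 0.00669). At 2 h Qrsl1 (log2 -1.14) and Eef1e1 (-1.17), a scaffold protein of the synthetase complex, were lower.

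Of 39 genes of tRNA transcription and processing, 1 was higher and 13 lower at 24 h (median log2 -0.32), against 18.1% and 15.1% of all genes, and 1 and 6 at 2 h, against 9.11% and 4.59%. Pop5, a subunit of RNase P and RNase MRP, was the higher gene at both times (log2 0.51 and 0.62). The lower calls of lowest p at 24 h were Gtf3c3, of the factor that recruits RNA polymerase III (log2 -0.76, adjusted p = 0.00276), and Pop1, of RNase P (log2 -0.94, adjusted p = 0.00312). At 2 h they were Rpp38, also of RNase P (19.8, 20.7 and 24.3 against 8.99, 9.62 and 9.58 CPM, adjusted p = 0.00154), and Elac1, a tRNA-processing endonuclease (log2 -1.30). The same shares of all genes stand beside the lists that follow. Of 24 cytosolic translation factors, 0 were higher and 5 lower at 24 h, among them Eif4a1 (log2 -1.04) and Eif4g1 (-0.65), and edgeR called 0 at 2 h. A list of 21 genes for mitochondrial translation also held genes of mitochondrial transcription and of tRNA maturation, Trmt10c and Gtpbp3 among the latter. Of these 21, 2 were lower at 24 h (Trmt10c, log2 -0.60, and Mtrf1, -0.61). At 2 h 1 was higher (Gtpbp3, 1.43) and 2 lower (Mrrf, -0.93, and Mtrf1, -0.89). In the list of structural RNAs, of which 4 were tested, Snhg1 fell at 24 h (log2 -0.93).

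Between DMSO at 2 h and DMSO at 24 h, where only the time with solvent differs in the labels, edgeR called 0 of 14467 genes (0%) and 0 members. Unadjusted p was under 0.05 for 1417 genes and 3 members, and DESeq2 called 16 genes (0.105%), Lars2 the 1 member among them. Lars2 had the lowest p of all genes (9.46e-06, adjusted p = 0.137), with 572, 1144 and 917 CPM at 2 h against 212, 134 and 103 CPM at 24 h. These groups were far apart (log2 -2.55, SE 0.37). Rn45s had 945, 1681 and 1634 against 676, 624 and 543 CPM, also with no overlap (log2 -1.21, SE 0.25, not called). Mir6236, a microRNA row, had 329, 739 and 579.6 against 89.9, 47.7 and 28.9 CPM (log2 -3.31, SE 0.51, not called). The other 34 members ran from log2 -0.65 in Sars, the cytosolic seryl enzyme, at 199.8, 403 and 478 against 268, 184 and 237 CPM with overlap, to 0.45 in Aars2. Lars2 was called without DMSO 2 h replicate 1, the low library of that group (log2 -2.78, adjusted p = 0.0161), and so was Rn45s (log2 -1.42, adjusted p = 0.0327), where 0.297% of all genes were called. No label says whether the 2 h and 24 h libraries were prepared together, so time and preparation cannot be told apart.

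The hairpins lowered their targets. Hdac1 had 88.8, 94.8 and 100.5 CPM in shLuc and 32.6, 28.6 and 30.5 CPM in shHdac1 (log2 -1.63, SE 0.09, adjusted p = 0.000165). Hdac2 had 309, 301 and 344 CPM in shLuc and 49.1, 48.0 and 53.8 CPM in shHdac2 (log2 -2.66, SE 0.09, adjusted p = 3.49e-06). In both cases the groups were apart. The shHdac1 and shHdac2 comparisons share their control libraries, so they are not independent of each other.

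With shHdac1, edgeR called 0 of 35 synthetase genes, where it called 0.749% of 13612 genes. Unadjusted p was under 0.05 for 3 members and for 1687 of the 13612 genes. DESeq2 called 1 member, Lars2, with 4.05% of all genes. Lars2 had 137, 107 and 104 CPM in shLuc and 186, 863 and 1048 CPM in shHdac1, so that replicate 1 lay just above the controls and far below the other 2 libraries of its group (log2 2.59, SE 0.51, adjusted p = 0.0593). Rn45s had 788, 660.2 and 602 CPM in shLuc and 745, 1246 and 1652 CPM in shHdac1, with replicate 1 again at the level of the controls (log2 0.83, SE 0.26, adjusted p = 0.222). Without shHdac1 replicate 1, Lars2 was called (log2 3.04, adjusted p = 0.000472), where 0.0725% of all genes were called. Without shLuc replicate 3, 4 members were called, all higher (Lars2, Hars, Vars and Wars at log2 2.52, 0.27, 0.26 and 0.43), where 11% of all genes were called. The 34 members other than Lars2 ran from log2 -0.53 in Rars, the arginyl enzyme (151, 156 and 245 against 127, 139 and 117 CPM), to 0.23 in Qars, the glutaminyl enzyme (175, 168 and 158 against 188, 177 and 225 CPM). Neither was called.

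With shHdac2, Lars2 was the 1 member called, where 1.68% of all genes were called. It rose from 137, 107 and 104 to 916, 803 and 1043 CPM with a wide gap between the groups (log2 2.99, SE 0.52, adjusted p = 0.0297). Rn45s was not called, at 788, 660.2 and 602 against 1166, 1146 and 1613 CPM, with no overlap (log2 0.94, SE 0.27, adjusted p = 0.127). Mir6236 was called in both knockdowns (log2 3.92, adjusted p = 0.0229 with shHdac2, and log2 3.45, adjusted p = 0.0484 with shHdac1). With log2 Rn45s as a covariate, the Lars2 change was 1.27 and no longer called (adjusted p = 0.303). That fit called 0.0147% of all genes, so the loss of calls was general. The Lars2 call was also lost without shLuc replicate 1 (adjusted p = 0.103) or 2 (0.121), or shHdac2 replicate 1 (0.108), 2 (0.117) or 3 (0.0635), while the log2 change stayed between 2.90 and 3.12. Without shLuc replicate 3, 3 members were called (Lars2 at log2 2.93, Hars at 0.27 and Wars at 0.45), where 8.78% of all genes were.

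The other 34 members ran from log2 -0.60 to 0.31 with shHdac2, and edgeR called none of them. Unadjusted p was under 0.05 for 5 of them and for 2158 of 13612 genes. The largest change among them was that of Cars2, at 11.1, 10.8 and 14.5 CPM in shLuc and 8.18, 8.74 and 7.03 CPM in shHdac2 (log2 -0.60, adjusted p = 0.165), groups that did not overlap. Next was Lars, the cytosolic leucyl enzyme (log2 -0.32, adjusted p = 0.563), whose groups overlapped. In the ATF4 list, Vldlr, a lipoprotein receptor gene (248, 235 and 295 against 123, 110.5 and 155 CPM, adjusted p = 0.0190), and Ddit3, a stress transcription factor gene (log2 -1.03, adjusted p = 0.0297), were lower with shHdac2, and edgeR called none of that list with shHdac1. No gene in the lists of charging partners, cytosolic translation factors, mitochondrial translation or tRNA processing was called by edgeR in either knockdown.

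Between shHdac1 and shHdac2, edgeR called 0 members, where 2.06% of all genes were called. Unadjusted p was under 0.05 for 3 members and for 1948 of 13612 genes. Mars2 was nearest, at 24.6, 22.1 and 21.7 CPM with shHdac1 and 18.8, 17.5 and 15.6 CPM with shHdac2 (log2 0.40, SE 0.11, adjusted p = 0.116). These groups were apart, and Mars2 was called by DESeq2, with 6.25% of all genes, and with the replicate block, with 6.51%. Lars2 had a log2 difference of -0.40 (adjusted p = 0.799) and overlapped.

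Over all 21 libraries Lars2 kept to separate levels that Rn45s shared. It was at 572 to 1144 CPM in the 6 libraries of 2 h and at 103 to 235 CPM in the 6 libraries of 24 h, while Rn45s was at 945 to 1845 and at 397 to 676 CPM. Among the hairpin libraries Lars2 was at 104 to 186 CPM in shLuc and shHdac1 replicate 1 and at 803 to 1048 CPM in the other 5, where Rn45s was at 602 to 788 and at 1146 to 1652 CPM. Because libraries fall into these levels, no correlation over all of them is given. CPM were scaled within each arm, so levels are to be compared within an arm.

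**Figure D3:**
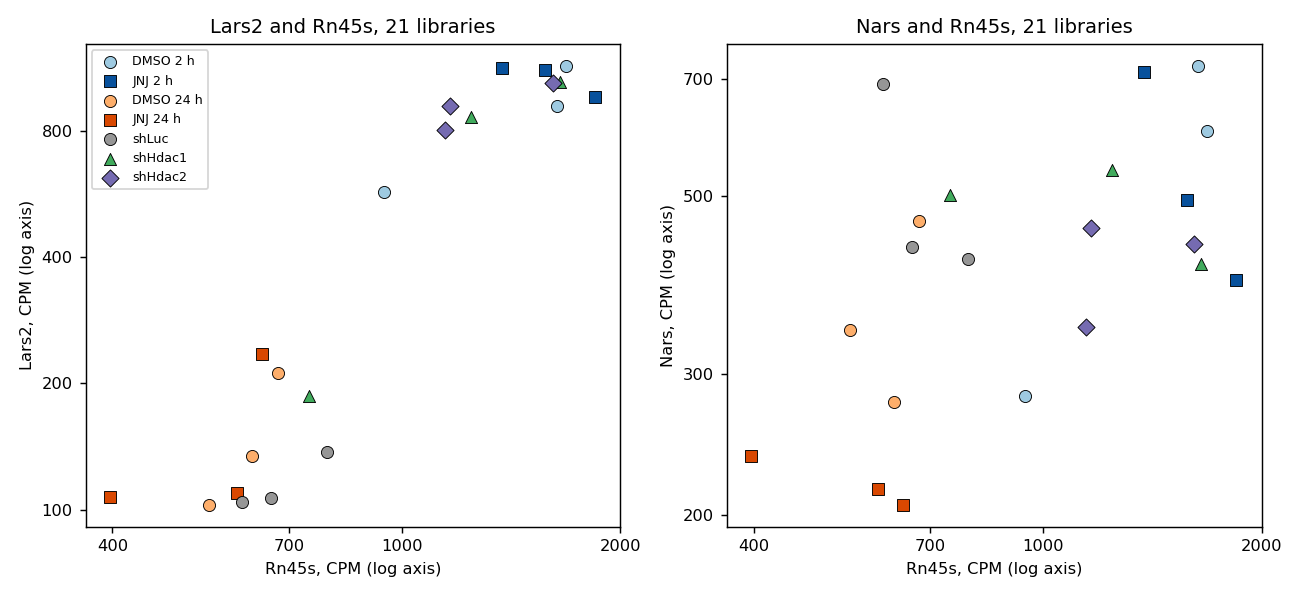
Lars2 (left) and Nars (right) against Rn45s in CPM on log axes, 1 point per library, coloured by group. High Lars2 goes with high Rn45s, with a gap between 235 and 572 CPM of Lars2, while Nars lies at 281 to 727 CPM at 2 h and at 206 to 466 CPM at 24 h, ranges that overlap.

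Within groups, deviations of Lars2 from its group mean, in log2(CPM + 0.5), went with those of Rn45s over the 21 libraries (Pearson r 0.81, Spearman rho 0.74). Lars2 was singled out for this relation on these same data, so r is a description and no p is given. Without the 2 libraries of largest Rn45s deviation, shHdac1 replicate 1 and DMSO 2 h replicate 1, r was 0.60 and rho 0.55, so the relation rests in part on those libraries. Within the 6 libraries of 2 h, r was 0.78 and rho 0.31, and within the 6 of 24 h, r was 0.65 and rho 0.89. Without the 2 libraries farthest from the median Rn45s, r was -0.37 at 2 h and 0.86 at 24 h, over 4 libraries each.

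In the same deviations, r with Rn45s ran from -0.63 (Nars2) to 0.41 (Vars2) over the other 34 members, with a median of -0.00. Between groups of 1 arm, however, some other members also had higher levels beside high Rn45s, and others did not. Nars was at 281 to 727 CPM in the libraries of 2 h and at 206 to 466 CPM in those of 24 h, and Sars at 199.8 to 478 and at 173 to 268 CPM. The ranges of both genes overlap between the times. From DMSO 2 h to DMSO 24 h in same-number pairs, Nars changed by log2 0.73, -1.12 and -1.09, so pair 1 rose while Rn45s fell. In that comparison 21 of the 34 members other than Lars2 had a negative log2 change, while Aars2, for example, rose with no overlap (log2 0.45, not called). Qars was at 158 to 175 CPM in shLuc and at 177 to 226 CPM in the knockdowns. The 5 genes whose deviations were most like those of Lars2, of 13547 in both fits, were Mir6236 (r 0.99), Rmrp (0.89), Rn45s (0.81, the third), Rpph1 (0.76) and 2810408A11Rik (0.71). Rmrp and Rpph1 are the RNA parts of RNase MRP and RNase P, and their levels here were at most 2.38 and 1.58 CPM, so they rest on few counts. All these values share the libraries' scaling. The mature RNA of Mir6236 lies at chr9:110281353-110281371 on the plus strand (RefSeq, GRCm38.p6) and is shown, with its seed (bases 2 to 8) in capitals, because this row is the nearest to Lars2.
miR-6236: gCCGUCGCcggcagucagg
Whether reads of rRNA are counted in the rows of Lars2 and Mir6236 was not tested, since the rRNA sequence was not used here.

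A second pattern, that of Asns, was carried by cytosolic synthetases and not by Lars2. Asns was chosen for it after values were seen, and r below is a description over the same 21 deviations. It was at or above 0.8 for 10 of 20 cytosolic members, 0 of 15 mitochondrial members and 0.701% of all genes. The 10 were Nars (0.97), Yars (0.96), Sars (0.95), Gars (0.95), Mars (0.94), Lars (0.94), Tars (0.92), Aars (0.92), Cars (0.84) and Eprs (0.81), the gene of the joint glutamyl and prolyl enzyme. The median was 0.77 over cytosolic members, 0.03 over mitochondrial members and -0.02 over all genes. Among the cytosolic genes Wars (0.02), Qars (-0.24) and Dars (-0.32) stood outside it, and Lars2 had 0.28. Of the 5 members with the promoter motif shown above, Aars, Gars, Tars and Yars are among the 10, and Iars had an r of 0.74. Sars, Mars and Eprs are also among the 10 and had a promoter entry without the motif, and Nars, Lars and Cars had no entry.

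The swing can be seen in single libraries. In DMSO 2 h, Asns had 193, 623 and 717 CPM and Nars 281, 603 and 727 CPM, with replicate 1 low in both. In DMSO 24 h, Asns had 443, 197 and 315 CPM and Nars 466, 277 and 340.4 CPM, with replicate 1 high and replicate 2 low in both. In shLuc, Asns had 361, 371 and 559 CPM and Nars 417, 432 and 690.3 CPM, with replicate 3 high in both. JNJ 24 h was low and even, with Asns at 165, 158 and 191 CPM. The within-group spread of log2 levels had a median of 0.31 over cytosolic members and 0.19 over mitochondrial members, against 0.27 over all genes. Iars had the widest spread of the cytosolic genes (0.57), from 122 and 123 CPM in shLuc replicates 1 and 2 to 344 CPM in replicate 3. Lars2 had the widest of all 35 (0.65). The part of this swing in the calls at 2 h and 24 h was not tested.

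**Figure D4:**
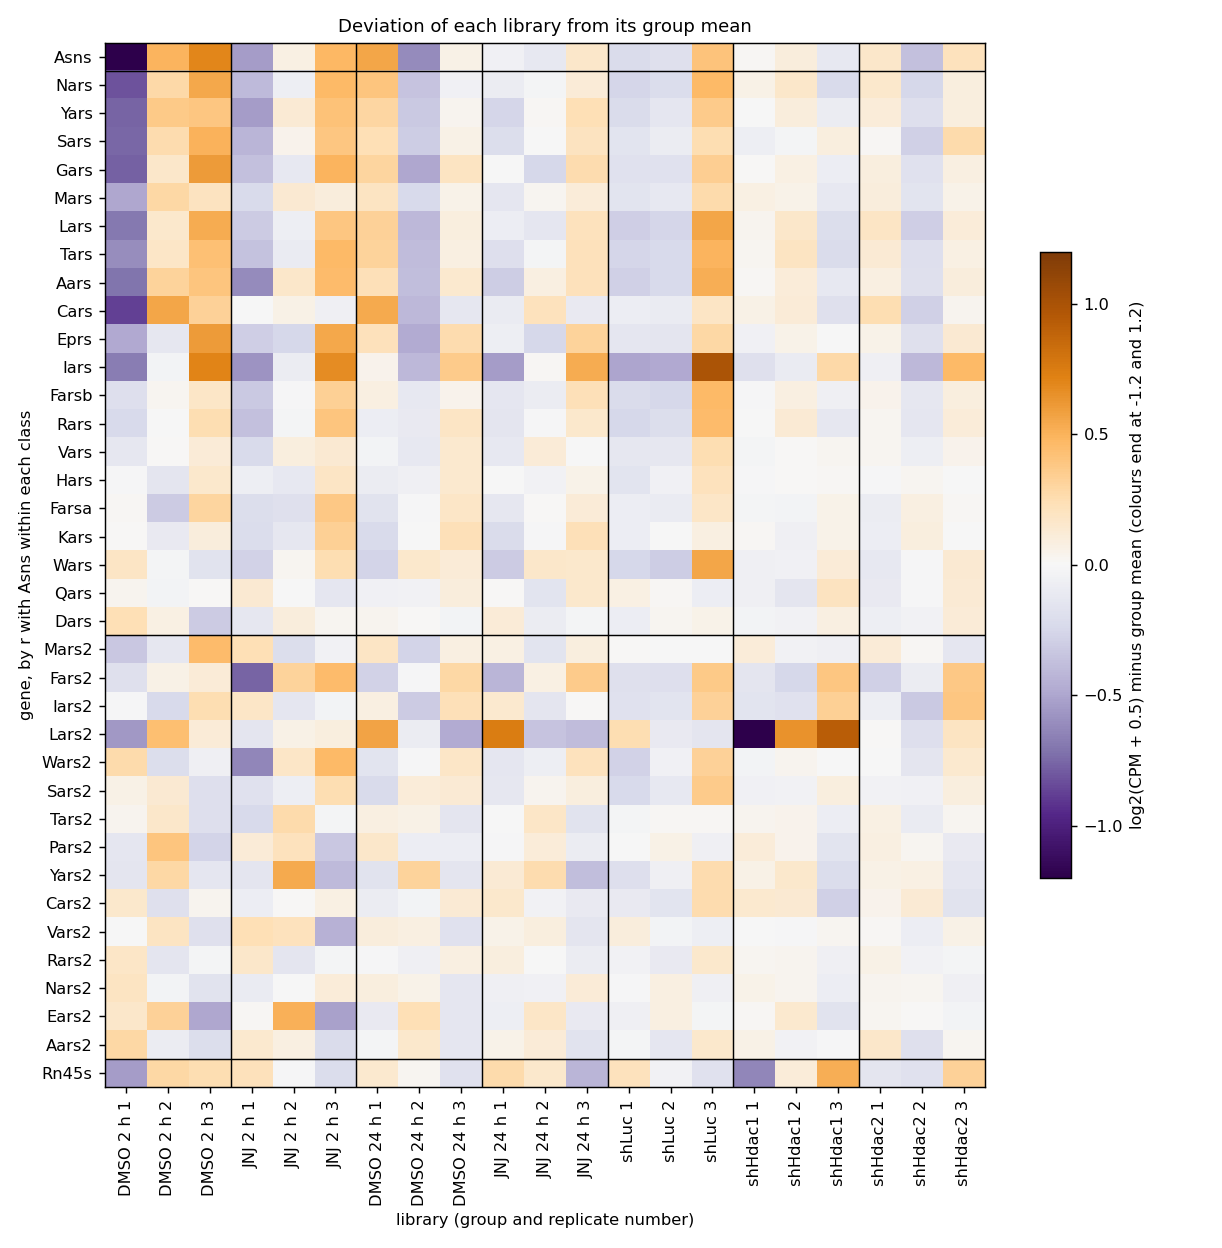
Deviation of each library from its group mean in log2(CPM + 0.5), for Asns (top row), the cytosolic and mitochondrial synthetases ordered by r with Asns, and Rn45s (bottom row). The upper cytosolic rows share the colours of Asns, low in DMSO 2 h replicate 1 and high in shLuc replicate 3, and Lars2 departs most in the shHdac1 libraries.

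**Figure D5:**
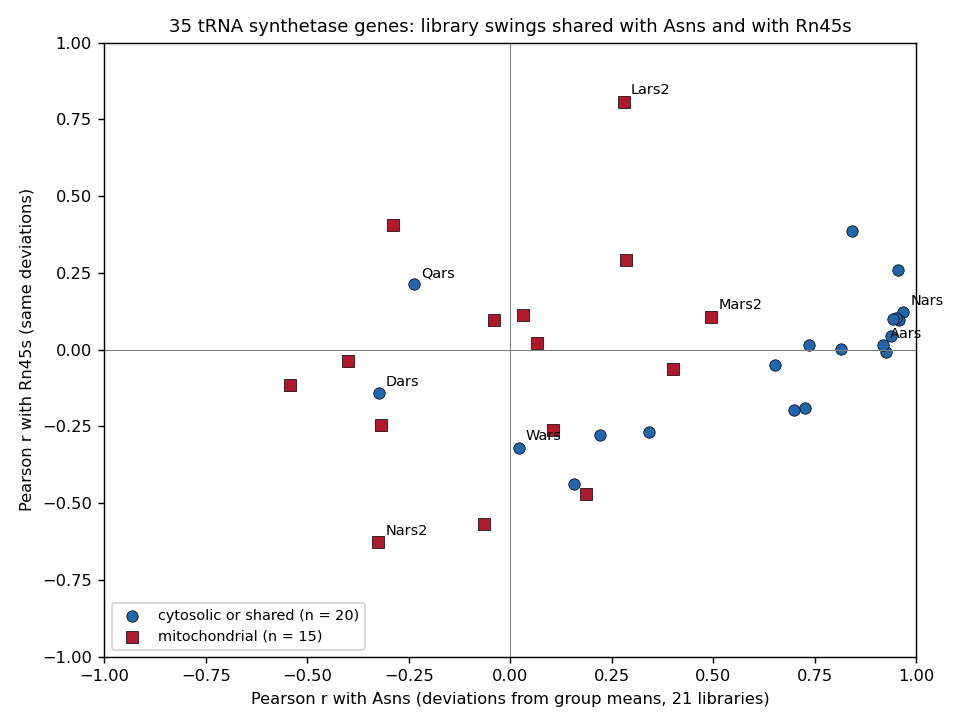
Pearson r of each synthetase gene with Asns (x axis) and with Rn45s (y axis) in deviations from group means over 21 libraries. Of 20 cytosolic genes, 10 crowd at the right with r of 0.81 to 0.97 with Asns, and the others run from -0.32 to 0.74. Lars2 stands alone at the top with 0.81 with Rn45s.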

How the data were processed

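The authors deposited raw gene counts of 21 libraries in 1 table, made from single-end 75-base reads of a stranded mRNA kit starting from 500 ng RNA, per the labels' protocols. STAR 2.5.1b and the mm9 build are named per the submitters' processing notes, while the counting options are not stated. The drug arm (12 libraries) and the hairpin arm (9) were each given their own model in edgeR 4.0.16 (R 4.3.3), after filterByExpr (minimum count 10, minimum total 15), with TMM factors of 0.883 to 1.15 and 0.961 to 1.03. Quasi-likelihood tests were two-sided, with Benjamini-Hochberg adjustment over all genes tested, and an adjusted p under 0.05 was called. The scripts were tested on simulated data. DESeq2 1.42.0, other scalings, no filter, log2 Rn45s as a covariate, other sample sets, a replicate block and leaving out each library were tried. The members and gene lists were chosen with earlier results of these data known. Named are the members called in a comparison, the 2 largest not called, Lars2 with Rn45s, the 5 genes most like Lars2, the hairpin targets, and in each other list the 2 of lowest p called in each direction, except for results not reported here.

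Replicate numbers come from the titles, and no label says what a number shares. Deviations of same-numbered libraries correlated at 0.105, 0.690 and 0.597 between DMSO and JNJ at 2 h, at 0.606 to 0.650 at 24 h, and at 0.254 to 0.833 among hairpin groups, and at up to 0.250, -0.191 and 0.668 between different numbers. Every same-number value was over 0.1, so the numbers were taken to pair these. At 2 h and among hairpin groups, not every library correlated best with its own number, so pairing there is less sure. With the block in the compared groups alone, 0 members were called for shHdac1 against shLuc, where 0% of all genes were. For shHdac2 against shLuc, Lars2 was the 1 member called in that setting, where 0.357% of all genes were. The numbers of DMSO 2 h were not taken to pair with those of DMSO 24 h (-0.176, 0.481 and 0.577) or JNJ 24 h (-0.012, 0.437 and 0.411). JNJ 2 h paired by number with both 24 h groups (0.412 to 0.649). Sequences come from RefSeq on GRCm38.p6, not the mm9 build of the counts, and were matched by symbol. Libraries held 23094799 to 39341784 counts, and no member had fewer than 114 counts in any library.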

Additional observations from a re-analysis of the deposited data

Results flagged for a closer look

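No synthetase gene was called for a difference between the JNJ effects at 24 h and 2 h by edgeR's quasi-likelihood test. Of 30 genes of the ATF4 amino acid response list, 3 were, 1 higher and 2 lower, where 4.24% of all genes were called. Chac1, a glutathione-degrading enzyme gene, had a difference of -3.11 on the log2 scale (SE 0.78, adjusted p = 0.0434). DMSO 24 h replicate 1, at 40.9 CPM, was far above every other library of that gene in the drug arm, which lay at 3.34 to 12.9 CPM. Cebpb had a difference of 1.71 (SE 0.44, adjusted p = 0.0458), with treated libraries of 24 h, at 18.2 to 30.6 CPM, above all others of the drug arm. Vldlr had a difference of -1.60 (SE 0.38, adjusted p = 0.0371), at 282, 223 and 152 CPM in JNJ 2 h and 111, 70.6 and 75.5 CPM in JNJ 24 h.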

How the results depend on the processing

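At 2 h, 4 members were called, against 2 with no low-count filter (9.35% of all genes), 1 with log2 Rn45s as a covariate (11%), 1 in the compared groups alone (4.79%), 8 with all 21 libraries in 1 fit (21.9%), 7 with DESeq2 (19.7%) and 1 to 4 without 1 library (7.07 to 22.7%). At 24 h, 8 were called, against 5 by library totals (32.1%), 14 in the compared groups alone (44.2%) and 5 to 7 without 1 library (23.1 to 27.4%). With the replicate block the counts were 7 at 2 h (23.9%) and 14 at 24 h (45.8%). With the block in the compared groups alone, an alternative chosen after seeing the data, they were 2 (10.8%) and 23 (63.5%). For the difference between times, 0 became 1 by RLE (4.32%), upper-quartile (4.83%) or total scaling (4.43%) or DESeq2 (10.4%), 3 with the replicate block (14.7%), 3 with all libraries in 1 fit (11.8%), and 0 to 2 without 1 library (0.988 to 7.81%). For DMSO over time, 0 became 1 (Lars2) with no filter (log2 -2.55, 0.0103% of all genes called), the replicate block (-2.63, 0.747%) or DESeq2 (-2.56, 0.105%). Without 1 library the change was -2.89 to -2.31, with 0 to 1 member and 0 to 0.297% of all genes called. With shHdac1, 0 became 1 (Lars2) with no filter (2.60, 0.512% of all genes called), all libraries in 1 fit (2.59, 0.055%) or DESeq2 (2.59, 4.05%). Without 1 library it was 0 to 4 (Lars2 at 2.18 to 3.04), where 0.0145 to 11% of all genes were called. With shHdac2, 1 became 0 with the Rn45s covariate (Lars2 at 1.27, 0.0147% of all genes called). Without 1 library it was 0 to 3 (Lars2 at 2.90 to 3.12), where 0.0872 to 8.78% of all genes were called. Between the knockdowns, 0 became 1 with the replicate block (6.51%) or DESeq2 (6.25%). The sign of small Lars2 changes turned. At 24 h it was -0.0073 with no filter, -0.029 with the block in the compared groups alone, and -0.47 to 0.34 without 1 library (-0.086 and -0.21 without DMSO replicates 2 and 3). For the difference between times it was 0.064 with the Rn45s covariate and -0.74 to 0.056 without 1 library. Between the knockdowns it was -0.82 to 0.057 without 1 library. The r of 0.81 between Lars2 and Rn45s deviations was 0.60 without the 2 farthest libraries and 0.70 to 0.86 without 1. Of the values of other named members under alternatives, 152 kept their call and 40 lost it, and 0 changed sign. Shares of all genes called moved with most of these counts, and nothing particular to the members is read from them. The cause was not tested.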
